A study of Mus musculus with 53 samples.

Results

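Oligodendrocyte precursor and premyelinating genes were followed in 4 brain regions of old mice carrying a human Machado-Joseph disease gene. The 9 genes were Pdgfra, Cspg4, Vcan, Lhfpl3, C1ql1, Ptprz1, Cacng4, Gpr17 and Bcas1. They were taken by symbol from the count table, and all 9 were among its 12372 genes. Spinocerebellar ataxia type 3 (SCA3) is caused by a lengthened CAG repeat in ATXN3. The SCA3 mice were hemizygous MJD84.2 animals, whose transgene is a human ATXN3 locus with a disease-length repeat that brings its own promoter and is active in all tissues, and the controls were wild-type (WT) mice. All were untreated C57BL/6 males of 74 to 77 weeks, group housed, and all had been through repeated motor tests, in which the SCA3 mice showed no ataxia. Poly-A RNA was sequenced from whole dissected brainstem, cerebellum, cortex and striatum of 14 mice (8 WT and 6 SCA3), giving 53 libraries. There were 8 WT and 6 SCA3 libraries of brainstem, 7 and 6 of cerebellum, 7 and 6 of cortex, and 8 and 5 of striatum.

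Oligodendrocyte precursors are dividing glia that persist in the adult brain and turn into myelinating oligodendrocytes through a short premyelinating stage. Precursors carry the growth factor receptor PDGFRα and the proteoglycan NG2, the products of Pdgfra and Cspg4, and lie in a matrix rich in versican, the product of Vcan. Cells that leave the precursor state switch on Gpr17 and then Bcas1, and later fill with myelin proteins such as those of Mbp and Mobp.

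Vcan was the only one of the 9 genes called between genotypes in any single region, and Pdgfra and Cspg4 define the precursor, so the sequences around the start sites of these 3 are shown. On GRCm38 the genes lie at chr13:89655312-89742509 (Vcan, minus strand), chr5:75152292-75198215 (Pdgfra, plus strand) and chr9:56865033-56899870 (Cspg4, plus strand). Bcas1 lies at chr2:170346991-170427845, C1ql1 at chr11:102939264-102946688 and Cacng4 at chr11:107732357-107794557, all on the minus strand, and Lhfpl3 at chr5:22746059-23275597 and Ptprz1 at chr6:22875502-23052916 on the plus strand. RefSeq promoter windows (250 bases before to 50 after the start, GRCm38.p6) were given for 5 of the 9 genes, these 3, Lhfpl3 and Ptprz1. The windows are chr13:89742463-89742762 on the minus strand for Vcan, chr5:75152001-75152300 on the plus strand for Pdgfra and chr9:56864854-56865153 on the plus strand for Cspg4. Capitals mark CANNTG, the E-box bound by OLIG and ASCL factors among others, and GGGCGG read on either strand, the GC box.
Vcan: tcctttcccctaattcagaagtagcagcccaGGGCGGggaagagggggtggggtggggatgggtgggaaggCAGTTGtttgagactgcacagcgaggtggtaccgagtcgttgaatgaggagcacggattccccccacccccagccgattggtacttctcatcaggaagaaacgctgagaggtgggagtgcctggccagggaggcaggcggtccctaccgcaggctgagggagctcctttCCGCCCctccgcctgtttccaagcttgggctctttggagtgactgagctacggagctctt
Pdgfra: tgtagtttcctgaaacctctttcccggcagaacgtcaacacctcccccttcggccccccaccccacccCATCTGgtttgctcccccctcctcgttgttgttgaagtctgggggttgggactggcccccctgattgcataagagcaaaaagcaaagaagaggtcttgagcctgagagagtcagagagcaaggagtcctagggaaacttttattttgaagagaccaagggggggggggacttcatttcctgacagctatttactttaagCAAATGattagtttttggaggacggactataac
Cspg4: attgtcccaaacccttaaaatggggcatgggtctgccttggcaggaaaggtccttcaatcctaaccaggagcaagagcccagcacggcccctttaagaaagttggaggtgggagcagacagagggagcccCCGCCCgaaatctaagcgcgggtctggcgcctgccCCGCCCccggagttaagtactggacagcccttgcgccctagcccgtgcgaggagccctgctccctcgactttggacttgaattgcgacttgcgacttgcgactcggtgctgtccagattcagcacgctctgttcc

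CANNTG had 1 match in the Vcan window, 2 in that of Pdgfra and 0 in that of Cspg4, and 72.3% of the 32851 RefSeq promoter windows held it. GGGCGG had 2 matches in the Vcan window, 0 in that of Pdgfra and 2 in that of Cspg4, against 35.7% of all windows with at least 1. ACAAAG, the core letters read by SOX factors, and TATAAA were in none of the 3 windows on either strand, and were in 18.7% and 13.6% of all windows. These are letter matches only.

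The libraries held 31.7 to 76.7 M counts, and a member had 86 to 67263 counts in a library. The dissections were uneven in neighbouring tissue. Summed markers in CPM, the count scaled to library size, set cerebellum apart (5 neuronal markers, at least 3817 CPM there and at most 297 elsewhere), but cortex and striatum overlapped. The 9 striatal projection neuron markers summed to 2035 to 8950 CPM in striatum and 607 to 3720 in cortex, and the 4 cortical glutamatergic markers to 426 to 1872 CPM in cortex and 20.6 to 733 in striatum. The 3 choroid plexus markers summed to 658 to 1998 CPM in SCA3 cerebellum and 19.6 to 2118 in WT cerebellum (median 140). In striatum and brainstem thalamic tissue varied too. The mean log2 level of 10 thalamic markers was 2.89 to 7.12 in WT striatum and 2.86 to 4.62 in SCA3 striatum, with the highest values in WT mice 7267059 (7.12) and 7267058 (6.73), and 8 of the 10 markers were lower in SCA3 striatum. RNA integrity numbers (RIN) averaged 7.24 ± 0.42 in WT brainstem (SD, n = 8) and 7.78 ± 0.26 in SCA3 brainstem (n = 6). In brainstem the mean log2 level of the thalamic markers was 5.49 in WT mouse 7267055, 5.41 in SCA3 mice 9083514 and 9083515, and 4.34 to 4.77 in the other 7 WT and 4 SCA3 libraries. The genes and lists called in striatum or brainstem are given with and without these libraries, subsets chosen after seeing the data. The part of neighbouring tissue and RNA integrity in the results was not tested.

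Per kilobase of exon, which allows genes to be compared, Bcas1 was the most abundant of the 9 in WT brainstem and cerebellum. In WT brainstem its level was 164 CPM per kilobase, ahead of C1ql1 (22.6), Ptprz1 (19.0) and Lhfpl3 (18.0). Gpr17 (7.31), Cacng4 (3.79), Vcan (2.65) and Cspg4 (1.94) were lower, and Pdgfra stood at 6.7. In WT cerebellum the order was Bcas1 (40.9), Ptprz1 (28.5) and Lhfpl3 (9.09), with Cspg4 lowest (0.816). All further levels are in CPM, for one gene across libraries.

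**Figure D1:**
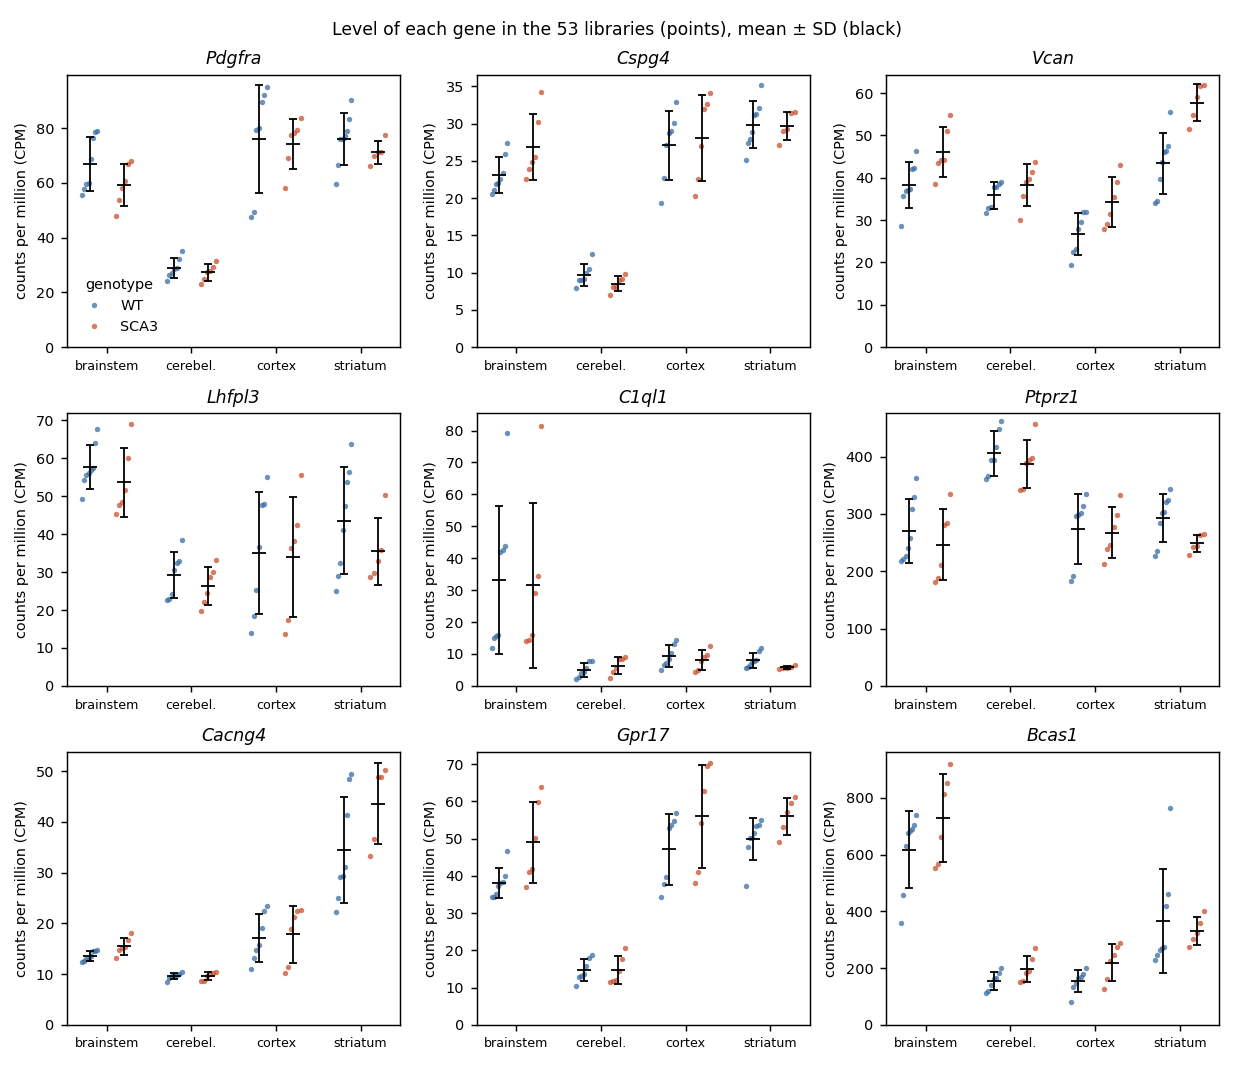
Level of each of the 9 genes in CPM (vertical axes, from 0) in the 53 libraries by region and genotype, with WT in blue, SCA3 in orange and the group mean ± SD in black. Pdgfra, Cspg4 and Gpr17 were lowest in cerebellum, Ptprz1 was highest there, and the SCA3 points for Vcan in striatum (51.6 to 61.8 CPM) lay at or above most WT points (34.0 to 55.4 CPM).

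The regional levels in WT mice fell into different patterns for genes usually grouped together. In likelihood ratio tests of all genes (edgeR, false discovery rate (FDR) below 0.05), 38 of the 54 pairs of regions differed over the 9 genes. Such differences were common in the whole table: 72.6% of all genes differed between cerebellum and brainstem, 65.4% between cortex and brainstem, 64.2% between striatum and brainstem, 69.7% between cortex and cerebellum, 69.5% between striatum and cerebellum, and 34.4% between striatum and cortex. Of the 27 pairs of neighbours in the order of levels, 13 differed. In bulk tissue fewer cells of a type cannot be told apart from less RNA per cell.

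Pdgfra, Cspg4 and Gpr17 were all lowest in cerebellum and next lowest in brainstem. Pdgfra, the receptor through which platelet-derived growth factor drives precursor division, averaged 76.2 ± 19.8 CPM in cortex (n = 7), 76.0 ± 9.5 in striatum (n = 8), 67.0 ± 9.9 in brainstem (n = 8) and 28.9 ± 3.7 in cerebellum (n = 7). The first 3 regions were not told apart (FDR 0.99 and 0.14 for neighbours), and cerebellum was lower than brainstem by 1.21 on the log2 scale (FDR 1.8e-23). Cspg4 averaged 29.9 ± 3.2 CPM in striatum, 27.1 ± 4.6 in cortex, 23.1 ± 2.4 in brainstem and 9.7 ± 1.5 in cerebellum. Only striatum and cortex were not told apart for Cspg4 among neighbours (FDR 0.32). Gpr17, a receptor that holds cells at the premyelinating stage, averaged 49.8 ± 5.6 CPM in striatum, 47.1 ± 9.5 in cortex, 38.0 ± 4.1 in brainstem and 14.6 ± 3.0 in cerebellum, with the same single unresolved neighbour (FDR 0.69).

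Bcas1 followed another order, with brainstem first. Its level was 617 ± 135 CPM in brainstem, 366 ± 183 in striatum, 154 ± 33 in cerebellum and 153 ± 39 in cortex. The last pair was not told apart (FDR 0.97), while brainstem exceeded striatum by 0.75 on the log2 scale (FDR 0.00042) and striatum exceeded cerebellum by 1.25 (FDR 1.2e-08). C1ql1, a secreted C1q-like protein that inferior olive neurons also make for their climbing fibres, averaged 33.2 ± 23.2 CPM in brainstem and 9.32 ± 3.50 in cortex (difference 1.83 on the log2 scale, FDR 1.8e-06). Striatum (7.99 ± 2.32 CPM) and cerebellum (4.90 ± 2.25 CPM) followed, and neither differed from its neighbour in the order (FDR 0.66 and 0.067).

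C1ql1 in WT brainstem was split. The lowest WT library had 11.8 CPM, the median was 29.0 CPM and the highest, of mouse 7267059, had 79.1 CPM. The SCA3 brainstem libraries ranged from 14.1 CPM over a median of 22.6 CPM to 81.4 CPM in mouse 9083513. The genotypes overlapped, but SCA3 reached the top of the WT range in that mouse alone, and the next SCA3 library had 34.5 CPM. The log2 difference was -0.07 ± 0.36 (SE), the widest SE of the 9 genes in that region, and -0.62 (FDR 0.46) without mouse 9083513. Within brainstem, with genotype means removed, r of C1ql1 was 0.90 with the mean of 9 striatal projection neuron markers. It was 0.74 with 12 astrocyte markers and -0.37 with the 16 other precursor genes described below. The part of tissue content was not tested.

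The other 4 genes differed in which region was highest and lowest. Ptprz1, a receptor phosphatase of precursors and astrocytes, was highest in cerebellum, at 405 ± 39 CPM, and striatum (292 ± 42), cortex (274 ± 61) and brainstem (271 ± 55) were not told apart from each other. Cacng4, an auxiliary subunit of AMPA receptors, had the order of Cspg4 and Gpr17 and stepped down from striatum (34.5 ± 10.5 CPM) to cortex (17.1 ± 4.7), brainstem (13.6 ± 0.98) and cerebellum (9.58 ± 0.63), each step passing the test (FDR 8.5e-09, 0.049 and 0.0024). Vcan was lowest in cortex, at 26.6 ± 5.0 CPM against 35.8 ± 3.1 in cerebellum (FDR 0.00027), and its levels in striatum (43.4 ± 7.2), brainstem (38.3 ± 5.4) and cerebellum did not differ between neighbours (FDR 0.11 and 0.43). Lhfpl3, a tetraspan membrane protein, had 57.7 ± 5.7 CPM in brainstem, 43.6 ± 14 in striatum, 35 ± 16.1 in cortex and 29.2 ± 6.1 in cerebellum, with no pair of neighbours told apart, although brainstem and cerebellum differed by 0.98 on the log2 scale (FDR 5.2e-05).

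Vcan was higher in SCA3 striatum, and it was the 1 gene of the 9 that passed the test in a single region. The 5 SCA3 striatal libraries had 61.8, 61.7, 59.1, 54.8 and 51.6 CPM, and the 8 WT libraries had 34.0 CPM at the lowest, 44.9 at the median and 55.4 at the highest. All 5 SCA3 libraries were above the WT median and 3 were above every WT library, so the groups overlapped, at the WT library of mouse 9082857. The level was 57.8 ± 4.5 CPM (SD, n = 5) against 43.4 ± 7.2 (n = 8), a fold of 1.3 (95% interval 1.13 to 1.56), with a log2 difference of 0.41 ± 0.12 (SE) and an FDR of 0.0136. In that region 7.54% of all genes were called and 1 of the 9 was. The call did not survive leaving out SCA3 mouse 7267054 (0.39, FDR 0.065), 7267056 (0.39, FDR 0.061) or 9083515 (0.40, FDR 0.057).

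The Vcan difference in striatum was 0.35 to 0.41 when thalamic tissue was taken into account, and it was then not called. Without the striatal libraries of WT mice 7267058 and 7267059, a choice made after seeing the data, it was 0.41 (FDR 0.056). In the striatal libraries alone it was 0.41 (FDR 0.072), and with the thalamic score as a covariate 0.35 ± 0.12 (FDR 0.24). Within striatum, with genotype means removed, the correlation of Vcan with the thalamic score was -0.35 over the 8 WT and 5 SCA3 libraries. It was 0.57 with the mean of 9 striatal projection neuron markers and -0.49 with that of the 16 other precursor genes described below. All 9 projection neuron markers had estimates above 0 in SCA3 striatum (median 0.47), and 0 of 9 were called (edgeR, 0 under an unadjusted p of 0.05). Their median was 0.26 without the 2 WT libraries and 0.11 with the thalamic score as a covariate. Within the 3 sets of mice whose numbers share their leading digits, the log2 difference was 0.48 (3 WT and 2 SCA3), 0.49 (4 and 2) and -0.02 (1 and 1). What these digits mean is not given in the labels. The striatal RIN means were 7.47 ± 0.98 in WT and 7.40 ± 1.02 in SCA3 libraries. The Vcan call was lost with libraries of RIN 7 or more, and it held with RIN as a covariate (0.40, FDR 0.015).

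The Vcan values in the other regions were also above WT, and the test over all regions together passed. In cortex Vcan had 34.3 ± 5.9 CPM in SCA3 (n = 6, 28 at the lowest, 33.4 at the median and 43.0 at the highest) and 26.6 ± 5.0 in WT (n = 7, 19.4, 27.8 and 32.0). All 6 SCA3 cortex libraries were above the WT median, and the groups overlapped (log2 difference 0.37 ± 0.12, unadjusted p = 0.0017 from edgeR, FDR 0.38). In brainstem the levels were 46.1 ± 5.9 and 38.3 ± 5.4 CPM, again with 6 of 6 above the WT median (0.27 ± 0.11, FDR 0.24). In cerebellum they were 38.3 ± 4.9 and 35.8 ± 3.1 CPM (0.10 ± 0.12, FDR 1.00). In the combined test, whose null is no difference in any region, Vcan had an FDR of 0.00081 and ranked 150 of 12372 genes. It was the 1 member called of 9, and 4.73% of all genes were called. Whether the genotype effect depended on region was tested directly: none of the 9 passed (edgeR, 0 of 9, smallest FDR 0.65 for Cspg4 and 0.82 for Vcan), with 0.218% of all genes called.

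**Figure D2:**
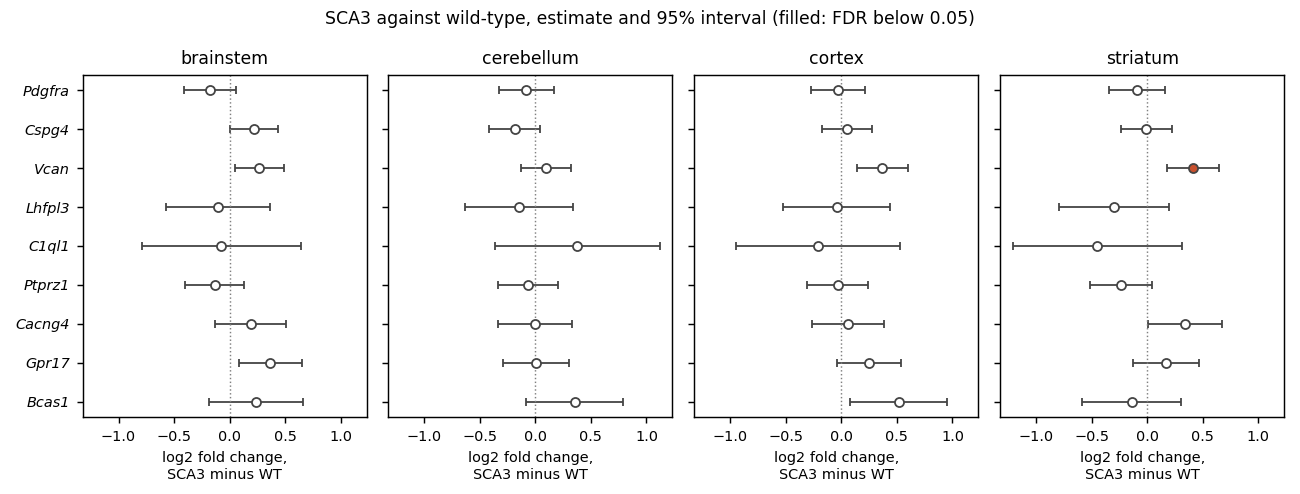
Log2 fold change of SCA3 against WT (horizontal axes) with its 95% interval for the 9 genes in each region, filled where the FDR was below 0.05. The Vcan estimates were 0.27, 0.10, 0.37 and 0.41 in brainstem, cerebellum, cortex and striatum, and 1 point of 36, Vcan in striatum, is filled.

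Pdgfra was not called in any region. In SCA3 brainstem it had 59.3 ± 7.7 CPM against 67.0 ± 9.9 in WT, a log2 difference of -0.18 with a 95% interval of -0.41 to 0.06 (FDR 0.55). In striatum the levels were 71.2 ± 4.1 and 76.0 ± 9.5 CPM (interval -0.34 to 0.15), in cortex 74.3 ± 9.2 and 76.2 ± 19.8 (interval -0.28 to 0.21), and in cerebellum 27.3 ± 3.0 and 28.9 ± 3.7 (interval -0.33 to 0.16). All 4 estimates were below 0, and the regions share mice. Cspg4, which pericytes also carry, had 26.9 ± 4.4 CPM in SCA3 brainstem against 23.1 ± 2.4 in WT. All 6 SCA3 libraries were above the WT median, and the log2 difference of 0.22 ± 0.11 did not pass (FDR 0.37). The highest SCA3 libraries were those of mice 9083514 (34.3 CPM) and 9083515 (30.3 CPM). The highest WT library was that of mouse 7267055 (27.4 CPM), and each of these had a high thalamic score. Within brainstem, with genotype means removed, r of Cspg4 with that score was 0.76. In brainstem libraries alone with the score as a covariate the Cspg4 difference was 0.15 ± 0.08 (FDR 0.34). Its estimates were -0.19 in cerebellum, 0.05 in cortex and -0.01 in striatum. The summed level of 8 mural cell markers overlapped between genotypes in every region (203 to 392 CPM in WT brainstem, 221 to 343 in SCA3), and 0 of the 8 were called. In cerebellum the sums were 211 to 268 CPM in WT and 176 to 223 in SCA3, and all 8 estimates were below 0 (median -0.21). The list medians elsewhere were -0.12 in brainstem, 0.07 in cortex and -0.01 in striatum.

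Gpr17 was higher on average in SCA3 brainstem without passing the test. The 6 SCA3 libraries had 37.1 CPM at the lowest, 46.0 at the median and 64.0 at the highest, and the 8 WT libraries had 34.2, 37.7 and 46.6. Of the 6 SCA3 libraries, 3 were above every WT library, and the rest overlapped with them. The highest SCA3 libraries, of mice 9083514 (64.0 CPM) and 9083515 (59.8 CPM), and the highest WT library, of mouse 7267055 (46.6 CPM), were the 3 with high thalamic scores, and within brainstem, with genotype means removed, r of Gpr17 with the thalamic score was 0.78 over 14 libraries. The log2 difference was 0.37 ± 0.14 (FDR 0.19, unadjusted p = 0.011 from edgeR). In the brainstem libraries alone with the thalamic score as a covariate it was 0.27 ± 0.09 and passed (FDR 0.047), and without those 3 libraries it was 0.21 ± 0.16 (FDR 0.99). At an unadjusted p below 0.05 the brainstem held 3 of the 9 genes (Gpr17, Vcan and Cspg4), where 13.3% of all genes were under that limit and 1.92% passed the FDR limit, against 0 of 9 members. Gpr17 estimates elsewhere were 0.01 in cerebellum, 0.25 in cortex and 0.17 in striatum.

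Gpr17 lies wholly inside Lims2 on the opposite strand (6640 bases, GRCm38), and reads were counted without strand, so reads of the pair cannot be told apart where they overlap. Lims2 had a log2 difference of 0.19 in brainstem and was not called. C1ql1 lies inside the long noncoding gene Gm26668 in the same way (7425 bases). The antisense genes Bcas1os2 (24075 bases) and Bcas1os1 (1995 bases) overlap Bcas1, Gm4117 overlaps Vcan by 3050 bases, and Pdgfra, Cacng4 and Lhfpl3 also have overlapping annotations. No such overlap was listed for Cspg4 and Ptprz1.

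Bcas1, which marks the newly forming myelinating cell, was not called in any region, and its libraries were widely spread. In cortex the SCA3 libraries had 125 CPM at the lowest, 235 at the median and 287 at the highest, against 79.7, 165 and 201 in WT. Of the 6 SCA3 libraries 4 were above every WT library, and the log2 difference was 0.52 ± 0.22 (FDR 0.94, unadjusted p = 0.020 from edgeR). With Vcan it made 2 of 9 members under an unadjusted p of 0.05 in cortex, where 4.07% of all genes were, and 0 of 9 passed the FDR limit, where 0.154% of all genes did. In brainstem the levels were 729 ± 155 CPM in SCA3 and 617 ± 135 in WT (0.24 ± 0.22, FDR 0.68), and in cerebellum 197 ± 47 and 154 ± 33 (0.35 ± 0.22, FDR 1.00). In cerebellum 0 of the 9 genes were under either limit, with 0.0647% and 1.66% of all genes below the FDR and the unadjusted limit.

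In striatum Bcas1 changed sign with the libraries included. The 5 SCA3 libraries had 401, 357, 325, 301 and 275 CPM, and the WT libraries had 227 at the lowest, 273 at the median and 766 at the highest, the last in mouse 7267059, which also had the highest thalamic score. The log2 difference was -0.14 ± 0.23 over all libraries, 0.10 without mouse 7267059 and 0.24 with the thalamic score as a covariate, none of them passing the test. Cacng4 and Lhfpl3 also moved with the thalamic score there.

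Cacng4 in striatum had 50.2, 48.9, 48.9, 36.7 and 33.3 CPM in the SCA3 libraries and 22.2 at the lowest, 30.3 at the median and 49.4 at the highest in WT. All 5 SCA3 values were above the WT median and 1 was above every WT library. The log2 difference was 0.34 ± 0.17 (FDR 0.20, unadjusted p = 0.046 from edgeR), and with the thalamic score as a covariate it was 0.08 ± 0.13. With Vcan it made 2 of 9 members under an unadjusted p of 0.05, where 23.2% of all genes in striatum were. Lhfpl3 in striatum had 50.4, 35.8, 32.8, 29.7 and 28.6 CPM in SCA3 and 25.0, 44.3 and 63.8 at the lowest, median and highest WT library. Its log2 difference of -0.30 ± 0.25 became 0.07 ± 0.15 with the covariate. Within striatum, with genotype means removed, the correlation with the thalamic score was -0.83 for Cacng4, 0.85 for Lhfpl3, 0.70 for Bcas1 and 0.68 for Ptprz1, over libraries that share the dissection.

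C1ql1, Lhfpl3 and Ptprz1 were not called in any region. Ptprz1 in striatum had 249 ± 15 CPM in SCA3 and 292 ± 42 in WT, with 0 of 5 SCA3 libraries above the WT median (log2 difference -0.23, interval -0.51 to 0.05, FDR 0.32). Without the striatal libraries of WT mice 7267058 and 7267059 the difference was -0.18, and with the thalamic score as a covariate -0.12. In brainstem its levels were 246 ± 62 and 271 ± 55 CPM (interval -0.40 to 0.13). C1ql1 in striatum had 5.85 ± 0.48 CPM in SCA3 and 7.99 ± 2.32 in WT, again with 0 of 5 above the WT median (-0.45, interval -1.21 to 0.31). Its difference was -0.56 without the same 2 libraries and -0.55 with the covariate, and in brainstem its interval was -0.79 to 0.64. For Lhfpl3 the estimates were -0.10 in brainstem, -0.15 in cerebellum and -0.04 in cortex, each with an SE of 0.24 or 0.25.

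Genes of the same lineage outside the 9 were compared stage by stage. Of 16 other precursor genes, 4 were higher in SCA3 brainstem, where 1.92% of all genes were called. In cerebellum, cortex and striatum 0 of 16 were called (edgeR, 1, 3 and 1 under an unadjusted p of 0.05), where 0.0647%, 0.154% and 7.54% of all genes were, and whether the list differed between regions was not tested. They were Matn4, a matrix protein (0.68 ± 0.16, FDR 0.0019), Susd5 (0.57 ± 0.14, FDR 0.0075), and Olig1 and Olig2, transcription factors that set the lineage (0.56 ± 0.14, FDR 0.0066, and 0.49 ± 0.14, FDR 0.040). The list median in brainstem was 0.32 against 0.0028 over all genes tested, with 14 of 16 above 0. The summed level of the 16 genes was 591 to 756 CPM in WT brainstem and 772 to 957 CPM in SCA3 brainstem. How often such ranges separate for other genes was not counted. Olig2 had 78.3 ± 5.2 CPM in SCA3 brainstem and 55.8 ± 5.9 in WT. The precursor genes moved with the thalamic markers in brainstem, with r = 0.63 between their means over 14 libraries with genotype means removed, and r was 0.44 with RIN. Their summed level in the libraries without a high thalamic score was 591 to 756 CPM in 7 WT and 772 to 872 CPM in 4 SCA3 libraries. Without the brainstem libraries of mice 7267055, 9083514 and 9083515, 0 of 16 were called and the median was 0.18 (Matn4 0.59 ± 0.18, FDR 0.11, and Olig2 0.51 ± 0.17, FDR 0.19). The number called was 5 with the thalamic score as a covariate, 4 with RIN as a covariate and 3 with RIN of at least 7, and Olig2 was not called in the last 2 (FDR 0.096 and 0.070). Without mouse 9083514 alone it was 2.

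Of 14 other premyelinating genes, Zfp488, a transcriptional partner of OLIG2, was higher in all 4 regions and Enpp6, a choline phosphodiesterase of newly forming oligodendrocytes, in 2. The log2 difference of Zfp488 was 1.79 ± 0.17 in brainstem (FDR 1.7e-22), 1.25 in cerebellum, 1.45 in cortex and 1.29 in striatum. Enpp6 had 13.5 ± 2.0 CPM in SCA3 cortex and 5.66 ± 1.23 in WT (1.25 ± 0.20, FDR 1e-06), and 24.8 ± 4.8 against 14.6 ± 5.1 CPM in striatum (0.76 ± 0.20, FDR 0.0059). Fyn, a kinase that acts in early myelination, was higher in brainstem (0.24 ± 0.05, FDR 0.00024). The other 11 genes were not called in any region. The number called of the 14 was 2 in brainstem, 1 in cerebellum, 2 in cortex and 2 in striatum. Of all genes 1.92%, 0.0647%, 0.154% and 7.54% were called in the same order. None of the list was lower with a call. In striatum the number called was 4 without mouse 9082857 and 1 with the striatal libraries alone. Without the striatal libraries of WT mice 7267058 and 7267059 the difference was 1.5 for Zfp488 and 1.02 for Enpp6, both called, and without the 3 brainstem libraries it was 1.78 for Zfp488 and 0.23 for Fyn in brainstem, both called.

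Some mature oligodendrocyte genes were lower in SCA3 brainstem and striatum. Of 20 genes, 6 were lower in brainstem and 9 in striatum, where 1.92% and 7.54% of all genes were called, with list medians of -0.47 and -0.48. In cerebellum, where 0.0647% of all genes were called, 1 was lower. In cortex, where 0.154% were called, 1 was lower and 1, Anln, higher (0.77 ± 0.19, FDR 0.034). Car2, carbonic anhydrase 2, was lower in every region, with 189 ± 29 CPM in SCA3 brainstem against 453 ± 73 in WT. In brainstem the number lower was 2 without the 3 libraries of high thalamic score (median -0.40), 8 with the thalamic score as a covariate (median -0.38) and 4 with RIN as a covariate or with RIN of at least 7. Without the striatal libraries of WT mice 7267058 and 7267059, 1 was lower in striatum in place of 9, 1 was higher and the median was -0.18. With the thalamic score as a covariate 1 was lower and the median was -0.17. With libraries of RIN 7 or more 1 was lower at a median of -0.50, where calls over all genes fell from 933 to 139. The number was 1 with the striatal libraries alone, 4 without mouse 7267054 or 9083515 and 3 without mouse 7267056 or 7267059. The cortical number was 1 in 12 of 27 alternatives. Of 12 astrocyte markers, 5 were lower in brainstem and 5 in striatum, against 4 and 0 without the same libraries of each region. The striatal median was -0.31 with all libraries and -0.21 without the 2, and in brainstem 7 were lower with the thalamic score as a covariate and 3 with RIN as a covariate. The part of astrocyte content, RNA integrity and dissection in these lists was not tested.

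**Figure D3:**
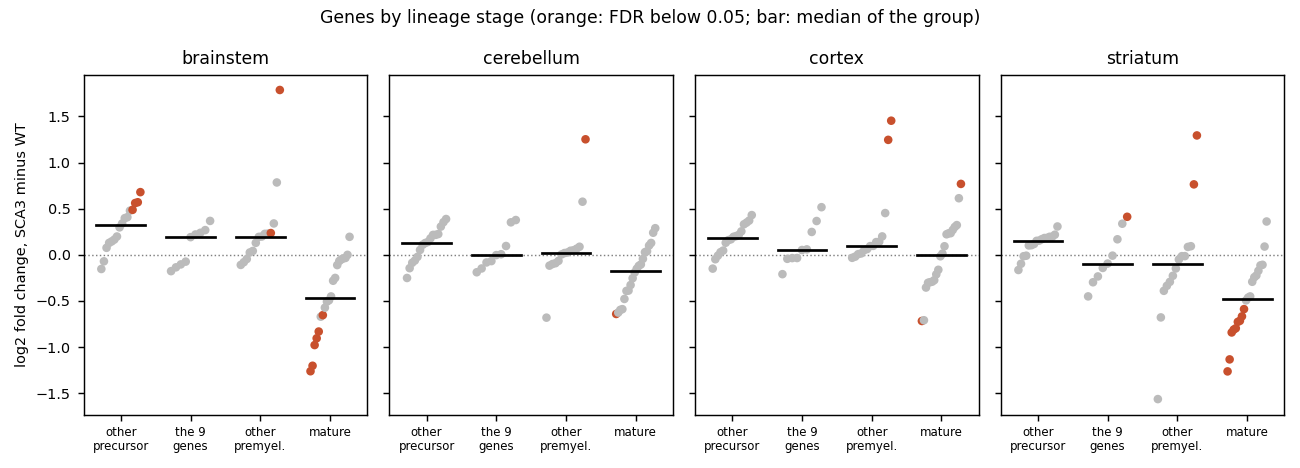
Log2 fold change of SCA3 against WT for 16 other precursor genes, the 9 genes, 14 other premyelinating genes and 20 mature oligodendrocyte genes in each region, with called genes in orange and the median of each group as a bar. In brainstem the medians were 0.32, 0.19, 0.20 and -0.47 from left to right, and 0.18, 0.11, 0.089 and -0.40 without the 3 libraries of high thalamic score.

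Ligands and partners of the 9 proteins and members of their families gave few calls. Of 17 ligand and partner genes, such as growth factors, hyaluronan synthases and link proteins, 0 were called in brainstem, cerebellum and cortex (edgeR, 1, 0 and 0 under an unadjusted p of 0.05). In striatum, where 7.54% of all genes were called, 1 was, Hapln4, a link protein of perineuronal nets, with a log2 difference of -1.1 ± 0.32 (FDR 0.021). It was -0.54 (FDR 0.39) without the striatal libraries of WT mice 7267058 and 7267059 and -0.24 (FDR 0.87) with the thalamic score as a covariate. Of 15 family relatives, 2 were lower in striatum, Cacng5 (-1.54 ± 0.31, FDR 0.00067) and Ptprg (-0.37 ± 0.11, FDR 0.026), and 0 elsewhere (0 in brainstem, 0 in cerebellum and 2 in cortex under an unadjusted p of 0.05). Without the same 2 libraries Cacng5 was still called (-1.43, FDR 0.0071) and Ptprg was not (-0.38, FDR 0.074), and with the thalamic score as a covariate neither was (-1.14, FDR 0.067, and -0.28, FDR 0.75). Acan, the proteoglycan aggrecan, was then called higher, at 0.97 (FDR 0.017) without the 2 libraries and 1.04 (FDR 6.5e-05) with the covariate.

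Library-to-library variation within groups divided the 9 genes. After the mean of each region and genotype group was taken off, log2 CPM of Pdgfra, Cspg4, Gpr17 and Lhfpl3 varied together over the 53 libraries of 14 mice, which share mice, dissections and depth. Pearson r was 0.75 for Pdgfra with Cspg4, 0.75 for Cspg4 with Gpr17, 0.70 for Pdgfra with Lhfpl3 and 0.66 for Pdgfra with Gpr17. Ptprz1 joined them at 0.69 with Pdgfra. Vcan stood apart, with 0.01 for Cspg4, 0.27 for Pdgfra and at most 0.31, for Cacng4. C1ql1 reached at most 0.25, also with Cacng4. Bcas1 had its highest value with Vcan (0.17) and its lowest with Ptprz1 (-0.37).

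**Figure D4:**
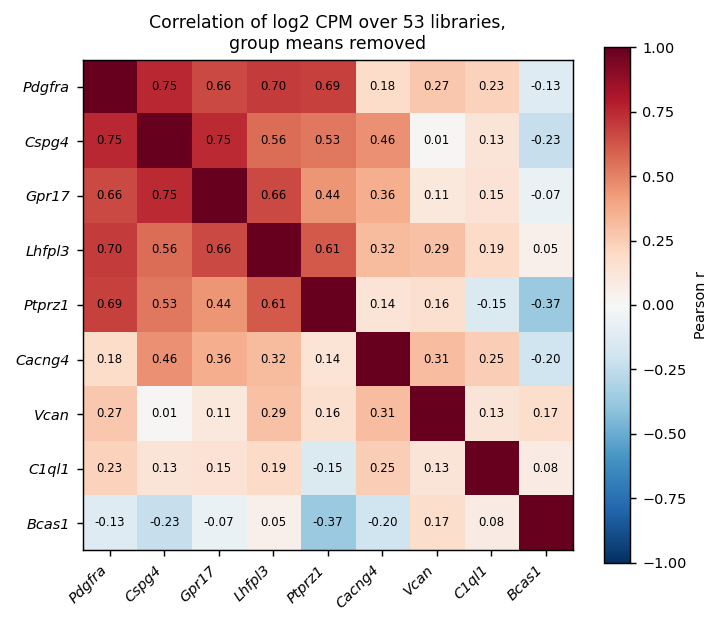
Pearson r of log2 CPM between the 9 genes over 53 libraries after group means were removed, with the value in each cell and colour from -1 (blue) to 1 (red). Pdgfra, Cspg4, Gpr17, Lhfpl3 and Ptprz1 form the block of higher values (0.44 to 0.75), and Bcas1 lies outside it (-0.37 to 0.17).

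The genes nearest to each member over the same libraries differed in kind. Pdgfra was nearest to Smoc1 (r = 0.79) and Adgrg1 (0.79), and Cspg4 to Adgrg1 (0.76) and Pdgfra (0.75). Smoc1, a secreted matrix protein, was higher in SCA3 brainstem (1.09 ± 0.21, FDR 4.5e-05) and striatum (0.67 ± 0.22, FDR 0.032), where Pdgfra was not called. It was 1.07 (FDR 0.0026) in brainstem without the 3 libraries of high thalamic score. In striatum it was 0.70 (FDR 0.086) without the 2 WT libraries and 0.90 (FDR 0.028) with the covariate. Gpr17 was nearest to Serpine2 (0.81) and Ctxn2 (0.81), and Vcan to Sppl2a (0.75) and Limch1 (0.70). Cacng4 was nearest to Adcy5 (0.88) and Gnal (0.87), which belong to the dopamine signalling of striatal projection neurons, and in striatum its r with the mean of 9 projection neuron markers was 0.94. Lhfpl3 was nearest to Fam196b (0.90) and Fchsd2 (0.87), Ptprz1 to Kcnd3 (0.88) and Asrgl1 (0.83), and C1ql1 to Myo5b (0.73) and Tmem176b (0.68). With the mean of the 16 other precursor genes r was 0.76 for Gpr17, 0.71 for Cspg4 and 0.67 for Pdgfra, but 0.08 for Vcan and -0.03 for Bcas1. Within brainstem r with the precursor genes was 0.84 for Gpr17, 0.88 for Cspg4 and 0.52 for Pdgfra, against -0.41 for Vcan and -0.39 for Bcas1. Within striatum few of the 9 followed them, with -0.39 for Gpr17, 0.42 for Cspg4, 0.14 for Pdgfra, -0.49 for Vcan and -0.23 for Bcas1, and the highest value was that of C1ql1 (0.65). With the mean of the 14 other premyelinating genes r of Bcas1 was 0.42 over all libraries, 0.83 in striatum and -0.66 in brainstem. These are descriptions over libraries that share mice and dissections.

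Bcas1 varied most closely with mature myelin genes. It was nearest to Mbp (r = 0.96) and Mobp (0.96), and r with the mean log2 CPM of the 20 mature oligodendrocyte genes was 0.94. Bcas1 was set against that mean within each library, a comparison chosen after its values were seen. Library scaling nearly cancels in this difference, which does not tell a higher Bcas1 from lower mature genes.

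Relative to the mature genes, Bcas1 was higher in SCA3 mice in all 4 regions. In brainstem the log2 difference between Bcas1 and the mature mean was 0.77 to 1.01 in the 8 WT libraries and 1.40 to 1.90 in the 6 SCA3 libraries. In cerebellum it was 0.48 to 0.75 in WT and 1.02 to 1.40 in SCA3, and in cortex 0.60 to 0.89 and 0.99 to 1.56. In these 3 regions every SCA3 library lay above every WT library. In striatum the ranges, 0.50 to 1.01 in WT and 0.97 to 1.25 in SCA3, overlapped. Groups did not overlap in the same measure for 2.14% of all genes in brainstem, 0.364% in cerebellum, 0.307% in cortex and 1.01% in striatum. The SCA3 minus WT difference was 0.70, 0.54, 0.51 and 0.38 in the same order, and exact two-sided permutation tests over libraries, adjusted over 36 tests of 9 genes in 4 regions, gave p = 0.0070, 0.0070, 0.0070 and 0.011. The unadjusted values of 0.000333 in brainstem and 0.00058275 in cerebellum and cortex were the smallest those library numbers allow. The regions come from the same mice and are not independent.

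**Figure D5:**
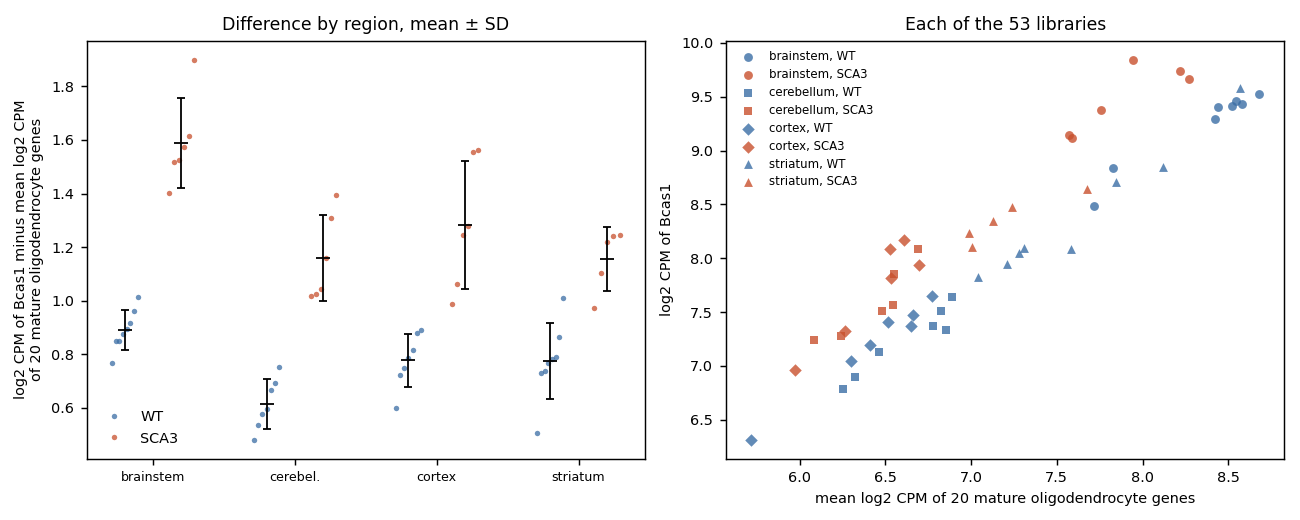
Left, log2 CPM of Bcas1 minus the mean log2 CPM of 20 mature oligodendrocyte genes (vertical axis) by region, with libraries as points (WT blue, SCA3 orange) and group mean ± SD in black. Right, the same 2 quantities against each other in all 53 libraries. SCA3 libraries lie above WT libraries at a like level of mature genes, with brainstem means of 1.59 and 0.89.

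The difference between Bcas1 and the myelin genes was also taken against its 2 nearest genes, which were chosen with their values known and are no separate support. Against Mbp alone it was 0.51 in brainstem, 0.46 in cerebellum, 0.52 in cortex and 0.38 in striatum, and against Mobp alone 0.90, 0.73, 0.78 and 0.67. Mobp itself was lower in SCA3 striatum (-0.81 ± 0.21, FDR 0.0085), but not called without the striatal libraries of WT mice 7267058 and 7267059 (-0.44, FDR 0.22), and Mbp was not called in any region. Without the 3 brainstem libraries of high thalamic score the difference of Bcas1 from the mature mean in brainstem was 0.73 (exact permutation p = 0.0030, unadjusted, the smallest that 7 against 4 libraries allow). With group means removed, the correlation of the difference with RIN was 0.04 over the 53 libraries. Of 111 genes whose r with Bcas1 was at least 0.8, which include 19 of the 20 mature genes, 12 had a higher log2 fold change than Bcas1 in brainstem, 8 in cerebellum, 13 in cortex and 59 in striatum. Their median was -0.09 in brainstem, 0.01 in cerebellum, 0.19 in cortex and -0.12 in striatum, against 0.24, 0.35, 0.52 and -0.14 for Bcas1.

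Of the other 8 genes, Vcan passed the same comparison with the mature genes in brainstem (0.72, adjusted exact permutation p = 0.0090), with overlapping groups. Its adjusted exact permutation p in striatum was 0.070 (difference 0.84). The brainstem differences for Gpr17 (0.79, adjusted exact permutation p = 0.084), Cspg4 (0.66, 0.10) and Cacng4 (0.64, 0.087) did not pass, nor did any value of Pdgfra, C1ql1, Lhfpl3 or Ptprz1. For each of these genes 3 or 4 of the 4 regional differences were above 0, and the mature genes, of which 6 were lower in SCA3 brainstem and 9 in striatum, enter all of them.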

How the data were processed

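Poly-A RNA libraries without strand information were sequenced by the authors, and per the labels and methods reads were demultiplexed (bcl2fastq 1.8), trimmed (cutadapt 1.10), aligned to GRCm38 (STAR 2.3.0e, unique reads only) and counted on RefSeq genes without strand (HTSeq 0.6.1). The deposited table holds raw read counts of 12372 genes, those above a mean of 4 CPM. Paralogous reads that map to several places are lost by this counting. Here all genes and 53 libraries were fitted at once in edgeR 4.0.16 (R 4.3.3, TMM scaling, glmFit and glmLRT, 8 groups of region and genotype), with 1 contrast per region, a combined test, a test of region dependence and the pairs of WT regions. FDR is Benjamini-Hochberg over all genes and calls are below 0.05. CPM uses TMM library sizes, and log2 CPM a prior count of 2. The fit was tested on simulated data.

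Regions came from the same animals. Deviations of a mouse from its group means correlated weakly between regions (mean r 0.0904 to 0.186 over 12 or 13 mice), so a fit with mouse as a block (limma-voom 3.58.1) was an alternative, as was DESeq2 1.42.0. In the main fit p-values rest on the spread between libraries within groups, estimated per gene over all regions together. It has no mouse term, so libraries of the same mouse count as independent in tests over several regions. The exact permutation tests compare mice within a region. Levels per kilobase and positions use GENCODE exons on GRCm38. The members and gene lists were chosen with earlier results of these data known. Named genes are the 9 members, list genes called in 2 or more regions or among the 3 smallest FDRs of a region, and the 2 genes nearest to each member. Others were chosen after their values were seen. Bmp4, Has2, C1ql2 and Lhfpl1 were listed but not analysed here.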

Additional observations from a re-analysis of the deposited data

Results flagged for a closer look

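Among 72 groups (9 genes in 8 groups), 4 held a library set apart from the rest by a large gap, where chance gives about 1 in 20. Gpr17 in WT brainstem was 46.6 CPM in mouse 7267055, and the next library had 39.8. Gpr17 in WT striatum was 37.3 CPM in mouse 9083375, and the next lowest had 47.6. Bcas1 in WT striatum was 766 CPM in mouse 7267059, whose thalamic score was also the highest, and the next library had 461. C1ql1 in SCA3 brainstem was 81.4 CPM in mouse 9083513, and the next library had 34.5. Without mouse 9083513 the C1ql1 log2 difference in brainstem was -0.62 (FDR 0.46) in place of -0.07, and without mouse 7267059 the Bcas1 difference in striatum was 0.10 in place of -0.14.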

How the results depend on the processing

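Of the 36 log2 differences of the 9 genes 35 were uncalled, and over 972 values under alternatives 57 uncalled ones had the other sign and no called one did. In brainstem the number called moved from 0 to 1 (Gpr17) in the libraries of the region alone with the thalamic score as a covariate. In striatum it moved from 1 to 0 with libraries of RIN 7 or more (Vcan 0.43, FDR 0.081), with the region alone (FDR 0.072), with the thalamic score as a covariate (FDR 0.24) and, chosen after seeing the data, without the striatal libraries of WT mice 7267058 and 7267059 (FDR 0.056). Leaving out each mouse in turn gave 0 to 1 called in striatum, 1 in the combined test, 0 in the dependence test and in the other 3 regions, and 34 to 38 of the 54 pairs of regions. With mouse as a random replicate block the striatal Vcan difference was 0.42 (FDR 0.022) and its combined FDR 0.027, and the block changed no call of the 9 genes. Over all alternatives the striatal Vcan difference was 0.35 to 0.47 and its combined FDR 0.00023 to 0.027. In cortex and cerebellum no alternative called a member, and in the main fit 2 and 0 were under an unadjusted p of 0.05 (edgeR). Bcas1 in cerebellum had an unadjusted edgeR p of 0.025 with the region alone. With the thalamic score as a covariate its edgeR p was 0.0036 (FDR 0.37). The Bcas1 difference from the mature genes was 0.51 to 0.90 in brainstem, 0.46 to 0.73 in cerebellum, 0.45 to 0.78 in cortex and 0.34 to 0.67 in striatum over 20 added settings, with exact permutation p of 0.014 at most. The cause of each change was not tested. The lowest count of a member was 86, for C1ql1 in 1 library, and the part of depth was not tested.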

Other observations

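In SCA3 striatum the 9 projection neuron markers were all above WT (median 0.47, 0.26 without the striatal libraries of WT mice 7267058 and 7267059 and 0.11 with the thalamic score as a covariate) with 0 of 9 called (edgeR, 0 under an unadjusted p of 0.05), beside 8 of 10 thalamic markers lower (median -1.86, Prkcd -3.47; 2 lower and median -0.18 without those 2 libraries). Of 3 proliferation genes measured, 0 were called in any region (edgeR, 1 under an unadjusted p of 0.05 in striatum), and their medians were 0.03 to 0.08. Endothelial and fibroblast markers gave 0 calls in the 4 regions (edgeR, 0 of 8 endothelial genes under an unadjusted p of 0.05, and 2 of 8 fibroblast genes in brainstem and 1 in striatum). Among the genes that varied with Bcas1 (r of at least 0.8), 111 in all, 14 were lower and 5 higher with a call in brainstem, 1 and 1 in cerebellum, 1 and 8 in cortex, and 21 and 3 in striatum. Of all genes 1.92%, 0.0647%, 0.154% and 7.54% were called in the same order. The following were picked from the 111 after their values were seen, so their directions do not stand for the whole set. Chdh, an enzyme of choline oxidation, had log2 differences of 1.04, 0.66, 0.87 and 0.85 in brainstem, cerebellum, cortex and striatum, and Cd82, a tetraspanin, 0.52, 0.48, 0.63 and 0.28. Psat1, an enzyme of serine synthesis, had 0.48, 0.39, 0.46 and 0.40. Litaf, whose r with Bcas1 was 0.95, had -0.38, -0.18, -0.02 and -0.54.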
